A study of Mus musculus with 8 samples.

Results

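Trp63, Grhl1, Grhl3, Klf4, Ovol1, Gata3, Ahr, Zfp750 and Maf encode transcription factors with known roles in keratinocyte differentiation, and they were chosen by name. All 9 genes were listed among the 22740 protein-coding genes of the counts, and all 9 were among the 15163 genes that passed the filter on low counts. RNA sequencing had been performed on dorsal skin of 8 female BALB/c mice aged 6 to 8 weeks, with 1 library from each mouse and 4 groups of 2 mice, all kept on a low-fibre diet per the study's methods. CTL mice drank water, and butyrate-treated mice drank water with 400 mM sodium butyrate from 2 weeks before allergen exposure. Baseline skin had not been exposed to allergen, and lesional skin had been exposed to house dust mite (HDM) extract under an occlusive patch, with 15 µg in each of 4 exposures over 2 weeks. The comparisons address whether the regulators of keratinocyte differentiation moved with HDM exposure and with butyrate. The mouse labels of baseline and lesional mice begin with different numbers, so the set of mice and HDM exposure cannot be told apart. Their middle number differs between CTL and butyrate-treated mice, so the same holds for butyrate. The labels name no group with a saline patch, so the patch and HDM exposure cannot be told apart either.

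The epidermis renews itself from basal keratinocytes, which stop dividing, move upwards, switch their keratins and at last build the cornified envelope. p63, the product of Trp63, maintains the basal cells and opens the stratification programme, and Zfp750 and Klf4 act downstream of it to start terminal differentiation and to establish the skin barrier. Grhl1 and Grhl3 belong to the grainyhead family, which controls cell adhesion, envelope crosslinking and barrier repair. Ovol1 is a zinc finger repressor that promotes the exit of progenitors from the cell cycle, and Maf drives differentiation genes in the upper layers. Gata3 is needed for epidermal lipid synthesis and for hair follicle lineages and is also the master regulator of type 2 lymphocytes. Ahr encodes the aryl hydrocarbon receptor, a ligand-activated factor that induces xenobiotic-metabolizing enzymes and supports barrier genes in keratinocytes.

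Several of these genes are used by hair follicles and by immune cells as well as by the interfollicular epidermis. In whole skin, fewer cells of a type and less RNA per cell cannot be told apart.

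RefSeq promoter sequences (GRCm38.p6) were matched for 4 of the 9 genes, Gata3, Grhl1, Grhl3 and Klf4, with 5 start sites in all, and none was matched for Trp63, Ovol1, Ahr, Zfp750 or Maf. The 250 bases before the start are shown for Gata3 and Grhl3, chosen after their values were seen, as the genes that fell and stood higher in the lesional mice. They lie at chr2:9878601-9878850 and chr4:135573633-135573882, both on the minus strand. In the GENCODE annotation the window of Gata3 also lies within an intron of longer Gata3 transcripts, while that of Grhl3 lies outside the gene. Capitals mark the CACCC box bound by KLF factors and the MAF half-site TGCTGA, on either strand.
Gata3: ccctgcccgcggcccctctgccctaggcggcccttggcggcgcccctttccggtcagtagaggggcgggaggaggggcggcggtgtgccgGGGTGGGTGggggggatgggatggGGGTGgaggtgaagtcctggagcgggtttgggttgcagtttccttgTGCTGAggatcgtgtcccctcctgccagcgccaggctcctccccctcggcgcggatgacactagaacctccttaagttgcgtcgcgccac
Grhl3: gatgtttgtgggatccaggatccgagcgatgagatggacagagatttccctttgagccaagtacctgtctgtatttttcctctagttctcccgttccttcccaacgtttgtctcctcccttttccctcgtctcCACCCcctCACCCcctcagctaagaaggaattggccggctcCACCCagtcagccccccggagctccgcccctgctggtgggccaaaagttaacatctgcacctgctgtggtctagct
Both windows held 3 CACCC boxes, a pair of them overlapping in Gata3, and 52.0% of 32851 RefSeq promoter windows of the same length held at least 1. The MAF half-site occurred once in the Gata3 window and in 16.1% of all windows. The grainyhead site AACNGGTT, the GATA site AGATAA, the AHR-ARNT site TTGCGTG and the AP-1 site TGANTCA were searched on both strands too, and neither window held these letters. They occurred in 1.79%, 9.99%, 0.925% and 6.75% of all windows. The downstream start of Grhl1 held 2 CACCC boxes, and its upstream start and the Klf4 window held none of the 6 motifs.

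Before the results, 1 library has to be set apart. Baseline butyrate replicate 3 held the highest of the 8 values for 6 of the 9 genes (Trp63, Grhl1, Ovol1, Gata3, Zfp750 and Maf) and the lowest for the other 3 (Grhl3, Klf4 and Ahr). The sum of 12 markers of hair matrix and inner root sheath was 18803 CPM (counts scaled to a common depth by TMM-adjusted library sizes) in it and between 24.4 and 37.3 CPM in the other 7 libraries, and all 12 markers were highest there. All 6 melanocyte markers (summed 789 CPM, against 51.8 to 87.2) and all 7 cell cycle markers (737 CPM, against 250.4 to 455) were highest there too. Its 5 suprabasal keratinocyte markers summed to 2512 CPM, against 13219 to 14573 CPM in the other 3 baseline mice. No marker of these lists was at 0 in all libraries, and the part of these cells in the values of the 9 genes was not tested. Of 14198 genes with a mean of 1 CPM or more, 26.4% differed over 2-fold between the baseline butyrate replicates, compared with 1.39% to 4.76% in the other groups. Library totals were between 18004136 and 21085544 counts. The fitted values that rest most on this mouse are given with and without it.

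**Figure D1:**
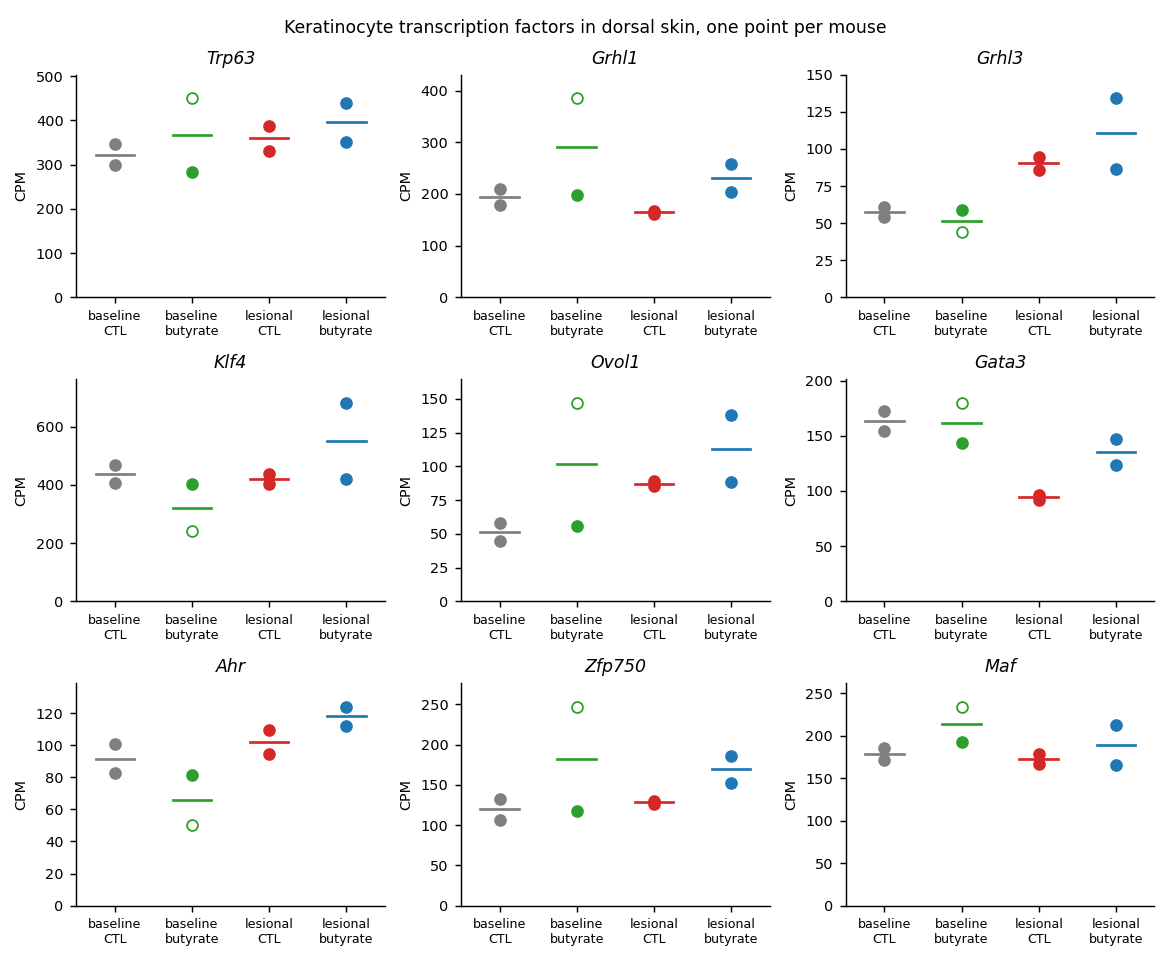
Levels of the 9 genes in CPM (vertical axes, from 0) by group (horizontal axes), with 1 point per mouse and a line at the mean of the 2 mice. The open point is baseline butyrate replicate 3, which is the highest or the lowest point in every panel, and the Gata3 points of lesional CTL skin lie below those of every other group.

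The stem and progenitor regulator Trp63 (chromosome 16, 25683763 to 25892102) had overlapping levels in the 4 groups. Its level was 347 and 298 CPM in baseline CTL, 283 and 449 CPM in baseline butyrate, 388 and 331 CPM in lesional CTL and 439 and 352 CPM in lesional butyrate skin. The highest and the lowest value were both those of baseline butyrate mice. Zfp750 (chromosome 11, 121510978 to 121519333), which p63 induces, had 133 and 107 CPM in baseline CTL, 118 and 247 CPM in baseline butyrate, 131 and 126 CPM in lesional CTL and 187 and 153 CPM in lesional butyrate skin. The lesional butyrate mice lay above the lesional CTL mice, and without baseline butyrate replicate 3 they were the highest of all. The Zfp750 gene lies inside Tbcd on the other strand. Its count rests on reads being assigned by strand, as set for the deposited reverse-strand counts. The study's methods do not state that the library kit kept the strand, and the part of Tbcd reads in this count was not tested.

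Klf4 (chromosome 4, 55527143 to 55532466), a barrier factor of the upper layers, had the highest level per kb of exon in every mouse. Its level was 467 and 407 CPM in baseline CTL, 402 and 243 CPM in baseline butyrate, 437 and 403 CPM in lesional CTL and 683 and 421 CPM in lesional butyrate skin. The high lesional butyrate value came from replicate 3, and replicate 4 lay within the range of the lesional CTL mice. Ovol1 (chromosome 19, 5549136 to 5560646) had 58.1 and 44.7 CPM in baseline CTL, 55.6 and 147 CPM in baseline butyrate, 85.1 and 89.4 CPM in lesional CTL and 138 and 88.7 CPM in lesional butyrate skin. All 4 lesional mice lay above 3 of the baseline mice, and the remaining baseline mouse, butyrate replicate 3, was the highest of all. Maf (chromosome 8, 115682942 to 115707794) had 171 and 185 CPM, 192 and 234 CPM, 178 and 166 CPM, and 166 and 213 CPM in the same order of groups. Its highest value was 1.41 times its lowest, the narrowest relative range of the 9 genes.

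The grainyhead genes differed from each other. Grhl1 (chromosome 12, 24572283 to 24617391), which activates desmosomal cadherin genes, had 209 and 178 CPM in baseline CTL, 198 and 385 CPM in baseline butyrate, 167 and 162 CPM in lesional CTL and 258 and 204 CPM in lesional butyrate skin. Grhl3 (chromosome 4, 135541888 to 135573630), which is needed for barrier formation and wound closure, had 61.0 and 54.3 CPM in baseline CTL, 59.0 and 44.0 CPM in baseline butyrate, 94.7 and 85.7 CPM in lesional CTL and 134 and 86.8 CPM in lesional butyrate skin. All 4 lesional mice lay above all 4 baseline mice for Grhl3, 1 of the 9 genes, and the share of all genes with this pattern was not counted. The ratio of Grhl3 to Grhl1 counts was 0.293, 0.304 and 0.298 in 3 baseline mice and 0.114 in baseline butyrate replicate 3, and it was 0.567 and 0.529 in lesional CTL and 0.520 and 0.426 in lesional butyrate skin.

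Gata3 (chromosome 2, 9857078 to 9890034, overlapping annotated genes on both strands) followed another course. Its level was 173 and 155 CPM in baseline CTL and 143 and 180.0 CPM in baseline butyrate skin, 96.3 and 92.2 CPM in lesional CTL skin, and 123 and 147 CPM in lesional butyrate skin. The lesional CTL mice were the lowest of all 8, and the lesional butyrate mice lay between them and the baseline CTL mice. Relative to Trp63, the count of Gata3 was 0.498 and 0.518 in baseline CTL, 0.506 and 0.401 in baseline butyrate, 0.248 and 0.278 in lesional CTL and 0.281 and 0.418 in lesional butyrate skin. Ahr (chromosome 12, 35497974 to 35535038) had 100.5 and 82.6 CPM in baseline CTL, 81.6 and 50.3 CPM in baseline butyrate, 109 and 94.6 CPM in lesional CTL and 124 and 112 CPM in lesional butyrate skin. Both lesional butyrate mice were above all other mice for Ahr, and both baseline butyrate mice were below all other mice.

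Per kb of annotated exon, the order of levels in baseline CTL skin was Klf4, Gata3, Trp63, Zfp750, Grhl1, Maf, Grhl3, Ahr and Ovol1. Klf4 stood at 143 ± 13.9 CPM per kb (SD, n = 2) and the next gene, Gata3, at 41.1 ± 3.23 CPM per kb (SD, n = 2). Gata3, Trp63, Zfp750 and Grhl1 overlapped with their neighbours in this order, as did Maf with Grhl3 and Ahr with Ovol1. In lesional CTL skin Klf4 was again the first, at 138 ± 7.93 CPM per kb (SD, n = 2), while Gata3 stood in the seventh place, at 23.7 ± 0.743 CPM per kb (SD, n = 2), between Ovol1 and Maf. Grhl3 stood in the fourth place there, at 32.4 ± 2.28 CPM per kb (SD, n = 2), above Grhl1 at 29.7 ± 0.648 CPM per kb (SD, n = 2), the reverse of their order in baseline CTL skin.

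**Figure D2:**
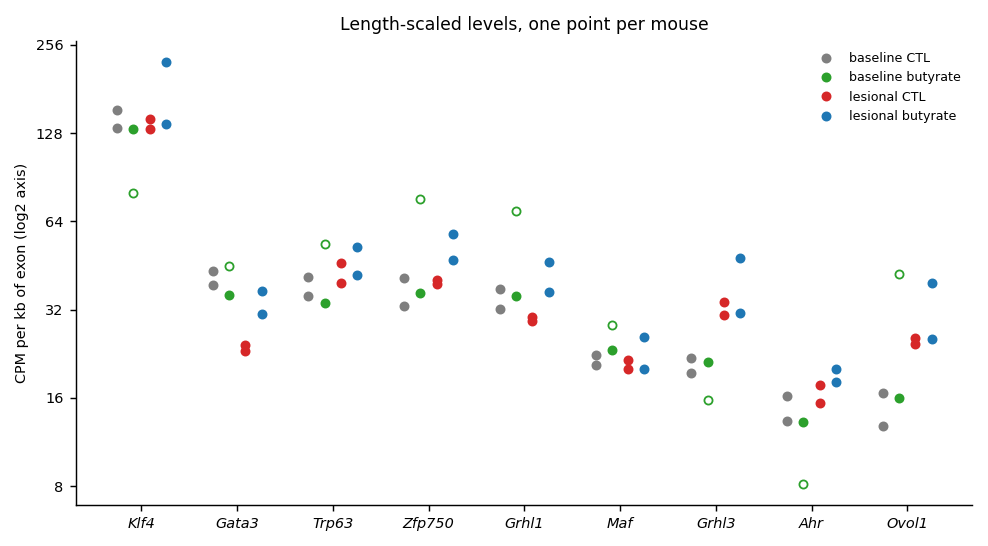
Levels in CPM per kb of annotated exon (vertical axis, log2 scale) of the 9 genes (horizontal axis, ordered by the mean of baseline CTL skin), with 1 point per mouse coloured by group. Klf4 lies above the others in every group, and the open points are baseline butyrate replicate 3.

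In CTL mice, HDM exposure went with a lower level of Gata3 and with higher levels of Grhl3 and Ovol1, while Trp63, Klf4, Ahr, Zfp750 and Maf differed by a log2 fold change between -0.06 and 0.16. Gata3 fell by 0.80 on the log2 scale (standard error 0.17), from 164 ± 12.9 CPM (SD, n = 2) to 94.3 ± 2.96 CPM (SD, n = 2). It was the 1 gene of the 9 that passed an FDR below 0.1 by edgeR's quasi-likelihood test (FDR = 0.0786), beside 4.83% of all genes tested. It passed with all 8 mice and with either baseline butyrate mouse left out, and it missed the threshold with any of the other 6 left out. Its FDR was then 0.506 and 0.355 without baseline CTL replicates 1 and 2, 0.529 and 0.410 without lesional CTL replicates 4 and 5, and 0.147 and 0.150 without lesional butyrate replicates 3 and 4. The log2 fold change stayed between -0.87 and -0.71. Grhl3 had a log2 fold change of 0.65 (standard error 0.25) with FDR = 0.228, and Ovol1 of 0.76 (standard error 0.46) with FDR = 0.388. Grhl1 had a log2 fold change of -0.23 and did not overlap between the groups either.

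None of the 9 genes met both criteria for a call, an FDR below 0.1 and a change of more than 2-fold, beside 3.58% of all genes. The groups did not overlap in 4 of the 9 genes, beside 75.2% of all genes. Baseline butyrate replicate 3 is in neither of the compared groups, and leaving it out repeated the filter, the scaling and the estimate of spread. The log2 fold changes were then -0.80 for Gata3, 0.76 for Ovol1 and 0.65 for Grhl3. Grhl3 and Ovol1 passed in an edgeR quasi-likelihood fit of only the 4 CTL mice (FDR = 0.00477 and 0.00744), beside 7503 of 14863 genes. Libraries were also scaled on 12 pan-epidermal genes, which encode adhesion and junction proteins and other proteins of keratinocytes. On this scale Gata3 had a log2 fold change of -0.81 with FDR = 0.235 by edgeR's quasi-likelihood test. Among the 12, 4 had a higher and 8 a lower fitted level in lesional CTL than in baseline CTL skin. Sfn had 475 and 520 CPM in baseline CTL and 1344 and 1067 CPM in lesional CTL skin, so the scale is not a fixed reference.

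Markers of immune cells stood higher in the lesional CTL mice, where Gata3 was lower. The 8 T cell markers summed to between 12.8 and 34.4 CPM in baseline and between 59.5 and 126 CPM in lesional skin. Of the 8, 7 were higher in all lesional than in all baseline mice, and the share of all genes with this pattern was not counted. All 8 had a higher fitted level in lesional CTL than in baseline CTL skin. In CTL mice 4 of the 8 rose (Cd4, Lck, Cd5 and Icos), which here and below means an FDR below 0.1. In this comparison 4.83% of all genes passed, which also stands beside the next lists. Of 7 markers used for type 2 innate lymphoid cells, 6 had a higher fitted level in lesional CTL than in baseline CTL skin, with a median log2 fold change of 2.70 over the 7, and 3 rose, Il1rl1, Il13 and Il5. Il1rl1, which encodes the receptor of interleukin-33, had 6.45 and 7.83 CPM in baseline CTL, 55.7 and 57.0 CPM in lesional CTL and 20.6 and 20.2 CPM in lesional butyrate skin. The remaining marker, Rora, which other cells of skin express too, was the most abundant of the 7 and had 287 and 233 CPM in baseline CTL and 151 and 168 CPM in lesional CTL skin. The 7 neutrophil markers summed to between 19.2 and 31.6 CPM at baseline, 2806 and 1718 CPM in lesional CTL and 796 and 366 CPM in lesional butyrate skin, and all 6 that were tested rose in CTL mice. Type 2 lymphocytes express Gata3, and their part in the Gata3 level was not tested. The pan-epidermal genes summed to between 5805 and 7911 CPM at baseline and between 5659 and 7904 CPM in lesional skin.

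**Figure D3:**
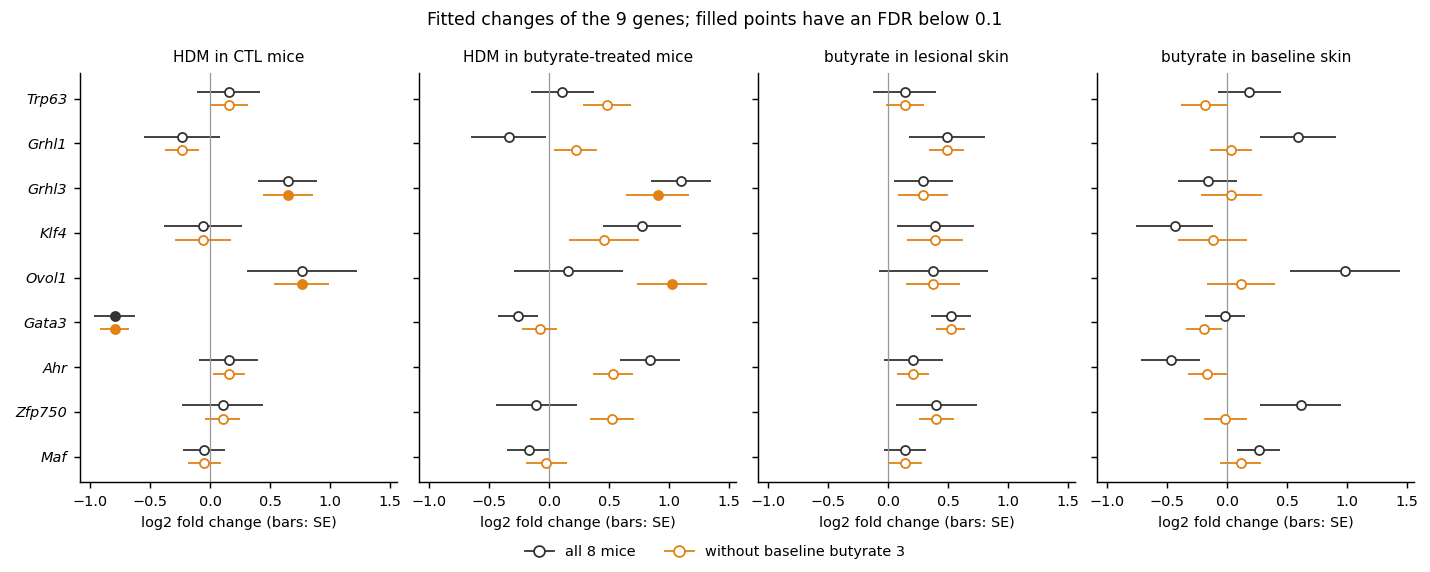
Fitted log2 fold changes (horizontal axes, points, with standard errors as bars) of the 9 genes in 4 comparisons, with all 8 mice (dark) and without baseline butyrate replicate 3 (orange); filled points have an FDR below 0.1. Gata3 is filled in the first panel in both fits, and Grhl3 and Ovol1 are filled only without that mouse.

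In butyrate-treated mice, the highest log2 fold changes after HDM exposure were those of Grhl3, Ahr and Klf4, beside a wide spread of the baseline pair. Grhl3 had a log2 fold change of 1.10 (standard error 0.25, FDR = 0.198 by edgeR's quasi-likelihood test), from 51.5 ± 10.6 CPM (SD, n = 2) to 110.4 ± 33.4 CPM (SD, n = 2). Ahr had 0.84 (standard error 0.25, FDR = 0.284) and Klf4 0.77 (standard error 0.32, FDR = 0.384) on the log2 scale, and without baseline butyrate replicate 3 they had 0.53 (FDR = 0.110) and 0.46 (FDR = 0.345). Grhl3, Klf4 and Ahr did not overlap between the groups, 3 of 9 genes beside 32.5% of all genes. Grhl3 and Ahr were 2 of the 9 genes with an unadjusted p below 0.05, beside 13.1% of all genes, and 0 of the 9 were called, beside 0.350%. With all 8 mice, DESeq2 called Grhl3 here (FDR = 0.00745) and gave Ahr an FDR of 0.0674. Of 15163 genes it called 698, and 1021 passed the FDR.

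Without baseline butyrate replicate 3, which leaves a single baseline butyrate mouse assumed to vary as the other groups do, the order changed. Ovol1 then had a log2 fold change of 1.03 (standard error 0.29, FDR = 0.0947) and was called, and Grhl3 had 0.91 (standard error 0.26, FDR = 0.0991). These were 2 of 9 genes that passed the FDR, beside 14.2% of all genes, and 1 of 9 called, beside 5.94%. The log2 fold change of Gata3 was -0.26 (standard error 0.17) with all mice and -0.08 (standard error 0.14) without that mouse, so that the decrease seen in CTL mice was not detected in butyrate-treated mice in either fit. The test of the difference between these HDM effects is the interaction given below for butyrate.

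In lesional skin, all 9 genes had a higher fitted level in butyrate-treated than in CTL mice when all mice were used. The median of the 9 log2 fold changes was 0.38, compared with -0.01 over all genes. This median was 0.14 without lesional butyrate replicate 3, where 7 of the 9 were higher, 0.54 without replicate 4, where 8 were higher, and 0.14 with libraries scaled on the pan-epidermal genes, where 7 were higher. None was called, beside 0.00% of all genes, and none passed an FDR below 0.1. Gata3 had the largest difference, 0.52 (standard error 0.17) on the log2 scale, with 94.3 ± 2.96 CPM (SD, n = 2) without and 135 ± 16.7 CPM (SD, n = 2) with butyrate, and with FDR = 0.914 by edgeR's quasi-likelihood test. It was 1 of 9 genes with an unadjusted p below 0.05, beside 4.84% of all genes. Grhl1 had 0.49 (standard error 0.32), Zfp750 0.40 (standard error 0.34), Klf4 0.39 (standard error 0.32) and Ovol1 0.38 (standard error 0.45). Grhl3 had 0.29 (standard error 0.25), Ahr 0.21 (standard error 0.25), and Maf and Trp63 had 0.14 each.

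The groups did not overlap for Grhl1, Gata3, Ahr and Zfp750, 4 of the 9 genes, all higher with butyrate, beside 44.9% of all genes in either direction and 22.4% that were higher with butyrate. Lesional butyrate replicate 3 exceeded replicate 4 in 7 of the 9 genes, Gata3 and Maf being the exceptions, and it also held the higher pan-epidermal sum (7904 CPM, against 6204 in replicate 4 and 5659 and 6338 in the CTL mice). On the pan-epidermal scale, which moved the median of all genes to -0.20, the differences were smaller, with Gata3 at 0.34 and Grhl1 at 0.27, and those of Trp63 and Maf changed sign (-0.07 and -0.03). Without baseline butyrate replicate 3, Gata3 (FDR = 0.128), Grhl1 (FDR = 0.201) and Zfp750 (FDR = 0.280) had an unadjusted p below 0.05 in edgeR's quasi-likelihood fit, 3 of 9 genes beside 14.8% of all genes.

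In baseline skin, the difference between butyrate-treated and CTL mice depended on which butyrate-treated mouse was read. With both, Ovol1 had a log2 fold change of 0.98 (standard error 0.46), Zfp750 of 0.61 (standard error 0.34), Grhl1 of 0.59 (standard error 0.32), Ahr of -0.47 (standard error 0.25) and Klf4 of -0.44 (standard error 0.32). The FDR of the 9 genes was between 0.714 and 0.968 by edgeR's quasi-likelihood test, and 0 of 9 were called, beside 0.00% of all genes. Klf4, Ahr and Maf did not overlap between the groups, 3 of 9 genes beside 29.7% of all genes. Replicate 1 alone, compared with the CTL mice, gave log2 fold changes between -0.19 (Gata3) and 0.11 (Ovol1). Replicate 3 alone gave 1.51 for Ovol1, 1.04 for Zfp750, 0.99 for Grhl1, -0.87 for Ahr and -0.85 for Klf4, and 6 of the 9 genes passed an FDR below 0.1, beside 51.9% of all genes, a comparison of a single mouse whose spread is assumed to be that of the other groups.

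In replicate 3, Ovol1 stood at 2.79 times the mean of the other 3 baseline mice, Zfp750 at 2.07 times and Grhl1 at 1.97 times. Trp63 stood at 1.45 times that mean, Maf at 1.28 and Gata3 at 1.15, while Grhl3 stood at 0.758, Klf4 at 0.572 and Ahr at 0.570 of it. The ratio of Klf4 to Ahr was 4.84 in this mouse, within the range of 4.65 to 4.93 in the other baseline mice, whereas the ratio of Klf4 to Trp63 was 0.542, against 1.35 to 1.42. The ratio of Grhl1 to Zfp750 was likewise close to the others, at 1.56 against 1.57 to 1.68. In the lesional mice the ratio of Klf4 to Ahr was between 3.75 and 5.51, and that of Grhl1 to Zfp750 between 1.28 and 1.38. The ratios of baseline butyrate replicate 3 follow from the multiples given above and are no separate result. Hair follicle markers stood apart in the same mouse, as given above, and their part was not tested.

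The interaction, which is the butyrate effect of lesional skin minus that of baseline skin, passed the FDR for none of the 9 genes, and 0 were called, beside 0.00% of all genes. Klf4 had the largest interaction, 0.83 (standard error 0.46) on the log2 scale, followed by Ahr with 0.68 (standard error 0.35), Ovol1 with -0.61 (standard error 0.64) and Gata3 with 0.54 (standard error 0.24), each with FDR between 0.840 and 0.850 (edgeR's quasi-likelihood test). Without baseline butyrate replicate 3, Gata3 had 0.72 (standard error 0.19, FDR = 0.474), Klf4 and Ahr had 0.52 and 0.38, and Ovol1 changed sign to 0.26. All 9 interactions were then positive, with a median of 0.38, compared with 4 of 9 and a median of -0.05 with all mice, and 6 of 9 were positive without that mouse on the pan-epidermal scale.

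**Figure D4:**
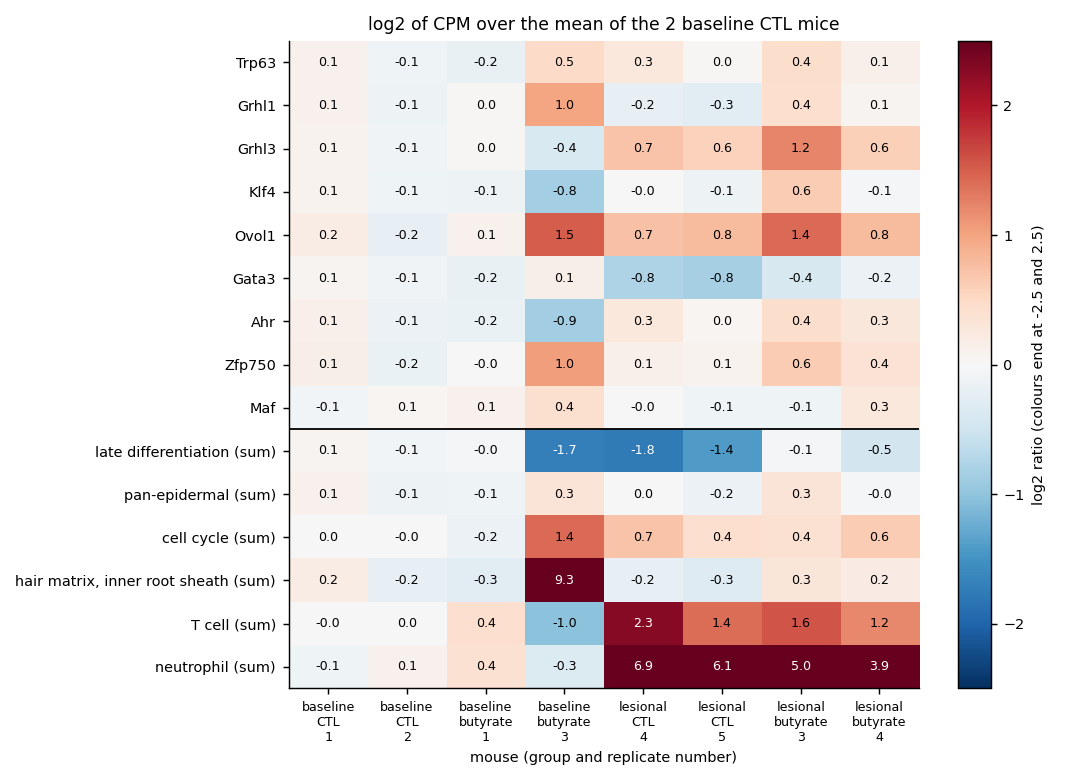
Colour map of the log2 ratio of CPM to the mean of the 2 baseline CTL mice (colour scale, ending at -2.5 and 2.5, value written in each cell) for the 9 genes and for 6 sums of marker genes (rows) in the 8 mice (columns). The late differentiation sum is low in both lesional CTL mice and in baseline butyrate replicate 3, where the 9 genes themselves take different courses.

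The genes of late differentiation moved further than the 9 transcription factors did. They encode keratins of the upper layers, envelope proteins, desmosomal cadherins, proteases and enzymes of barrier lipids, and 21 of 22 listed genes were tested. Their sum was between 18188 and 19803 CPM in 3 baseline mice, 5607 and 7113 CPM in lesional CTL skin and 18343 and 13852 CPM in lesional butyrate skin, and it was 5817 CPM in baseline butyrate replicate 3. In CTL mice after HDM exposure, 2 of the 21 fell, Dsg1a, a desmosomal cadherin (log2 fold change -1.24, FDR = 0.0738), and Krt2, a keratin (1.11 and 0.944 CPM to 0.320 and 0.323 CPM, FDR = 0.0917), and Dsg1b rose (0.80, FDR = 0.0701), by edgeR's quasi-likelihood test, beside 4.83% of all genes that passed. Dsg1a and Dsg1b are close copies that may share reads, so their split is uncertain. The median of the list was -0.66, compared with -0.02 over all genes, with 13 of the 21 lower and 8 higher in lesional CTL skin. In the fit without baseline butyrate replicate 3, 12 of the 21 fell and 4 rose, beside 38.7% of all genes that passed. Lor, the main envelope protein, fell from 701 and 616 CPM to 101 and 147 CPM (log2 fold change -2.41, FDR = 0.0035). In lesional skin, 20 of the 21 had a higher fitted level with butyrate, with a median of 0.81, and 0 passed with all mice. In the fit without that mouse, 5 rose, beside 2.03% of all genes that passed, among them Lor (1.54, FDR = 0.0778) and Krt10 (1.80, FDR = 0.0986). All 4 keratins of hyperproliferative epidermis had a higher fitted level in lesional CTL than in baseline CTL skin. Of these, Krt6a, Krt6b and Krt16 passed an FDR below 0.1, and Krt17 did not. Krt16 had 41.5 and 45.8 CPM in baseline CTL, 1702 and 1148 CPM in lesional CTL and 922 and 674 CPM in lesional butyrate skin.

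Of 34 other transcription factors of the epidermis, 3 rose and 1 fell after HDM exposure in CTL mice, beside 4.83% of all genes that passed. Elf3, an ETS factor of epithelia, had a log2 fold change of 3.96 (standard error 0.56, FDR = 0.0373), Fosl1, an AP-1 subunit, of 2.87 (standard error 0.67, FDR = 0.0972) and Ppard, a lipid-sensing nuclear receptor, of 0.97 (standard error 0.14, FDR = 0.0376), by edgeR's quasi-likelihood test. Tfap2b, an AP-2 factor, had -0.89 (standard error 0.18, FDR = 0.0693). The median of the 34 was 0.12. None of the 34 passed in the comparisons of butyrate or in butyrate-treated mice after HDM exposure. When baseline butyrate replicate 3 was left out, 12 rose and 10 fell in CTL mice, beside 38.7% of all genes, and 6 rose and 2 fell in butyrate-treated mice, beside 14.2%.

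Ovol2, the relative of Ovol1, had a log2 fold change of -1.39 after HDM exposure in CTL mice, from 5.78 and 6.77 CPM to 2.67 and 2.12 CPM. It passed without baseline butyrate replicate 3 (FDR = 0.00897) and not with all mice, with a direction opposite to that of Ovol1.

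The targets of the aryl hydrocarbon receptor did not move as one group. Of 7 targets 6 were tested, and 0 passed in any comparison with all mice. Aldh3a1, an aldehyde dehydrogenase, had 111 and 101 CPM in baseline CTL, 96.7 and 25.0 CPM in baseline butyrate, 30.6 and 36.9 CPM in lesional CTL and 64.0 and 69.7 CPM in lesional butyrate skin. Cyp1a1, the classical target, had 38.2 and 32.7 CPM, 25.7 and 5.43 CPM, 19.4 and 21.7 CPM, and 36.4 and 41.2 CPM in the same order of groups. Tiparp, a repressor of the receptor, had 42.1 and 39.0 CPM, 34.3 and 34.6 CPM, 77.5 and 73.8 CPM, and 75.0 and 44.6 CPM. Cyp1b1 had 79.5 and 99.3 CPM in lesional CTL and 69.4 and 68.3 CPM in lesional butyrate skin. Ahrr had 6.73 and 7.25 CPM against 6.20 and 5.35 CPM. For these 2 targets the lesional CTL mice lay above the lesional butyrate mice without overlap. In this comparison the groups did not overlap in 44.9% of all genes in either direction, including 22.4% that were higher with butyrate. For Aldh3a1 and Cyp1a1 the lesional CTL mice lay below the lesional butyrate mice without overlap, and for Ahr itself as well. When baseline butyrate replicate 3 was left out, both rose with butyrate in lesional skin (0.99, FDR = 0.047, and 0.92, FDR = 0.0595) and both fell after HDM exposure in CTL mice (-1.65, FDR = 0.00176, and -0.79, FDR = 0.0101), while Tiparp rose there (0.90, FDR = 0.0374), in edgeR's quasi-likelihood fit, where 2.03% and 38.7% of all genes passed. Ahr had a log2 fold change of 0.16 in the latter comparison.

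Among 13 targets of p63, 1 fell in CTL mice after HDM exposure, beside 4.83% of all genes that passed, with a median of -0.34 over the list. It was Fgfr2, a growth factor receptor of keratinocytes (log2 fold change -1.25, standard error 0.19, FDR = 0.0412 by edgeR's quasi-likelihood test). None of the 13 passed in the other comparisons with all mice. Of 10 genes of the Notch pathway, which acts upstream of several of these factors in suprabasal cells, 0 passed with all mice in any comparison, and their log2 fold changes in CTL mice were between -0.47 (Notch1) and 0.32 (Hes1). When that mouse was left out, 1 p63 target rose and 6 fell in CTL mice, and 3 Notch genes fell, 7 of 13 and 3 of 10 beside 38.7% of all genes.

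The genes whose log2 CPM was most like that of each factor over the 8 libraries, by Pearson's r over 12327 genes with a mean of 5 CPM or more, were Tbrg1 for Trp63 (r = 0.986), Cldn1 for Grhl1 (r = 0.987), Mapk11 for Grhl3 (r = 0.994), Pmvk for Klf4 (r = 0.982) and Yae1d1 for Ovol1 (r = 0.990). They were Ttc30b for Gata3 (r = 0.991), Tbc1d20 for Ahr (r = 0.994), Otub2 for Zfp750 (r = 0.993) and Yif1a for Maf (r = 0.952). The next 2 in each case were Ube4a and Med22, Slc22a23 and Insig2, Ceacam19 and Dennd2d, Stk25 and Higd1a, Dynll1 and Drg2, Crybg3 and Gstm5, Pctp and Elovl4, Eif4enif1 and Cd2ap, and Cxxc5 and Tspyl1, in the same order, with r between 0.946 and 0.994. These values describe 8 points, of which baseline butyrate replicate 3 is an extreme one for every factor. Over the other 7 libraries the first-ranked pairs had r between 0.924 (Maf and Yif1a) and 0.992 (Grhl3 and Mapk11), the other pairs had r between 0.899 (Maf and Cxxc5) and 0.996 (Grhl3 and Ceacam19), and only Pmvk was again the first for its factor.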

How the data were processed

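The authors prepared libraries with the TruSeq RNA kit, aligned reads to GRCm38 with STAR 2.5.2 and counted them with featureCounts, per the submitters' processing notes and the study's methods. The deposited table holds raw counts per protein-coding gene (reverse-strand setting), without normalization, for 8 libraries of 18004136 to 21085544 counts. The series' design text counts more samples, and only these 8 are analysed here.

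Groups came from the sample labels. CPM used TMM-scaled library sizes, and CPM per kb used exon lengths of GENCODE vM21. Counts were tested with edgeR 4.0.16 (R 4.3.3; TMM, filterByExpr with a minimum count of 10, robust quasi-likelihood fit, 1 mean per group, 15163 genes, 4 residual degrees of freedom). Calls required a Benjamini-Hochberg FDR below 0.1 over all tested genes and a fold-change above 2. Standard errors are the absolute log2 fold change over the square root of F. Alternatives were RLE and pan-epidermal scaling, no filter, limma-voom (limma 3.58.1), DESeq2 1.42.0, only the compared mice, and leaving out each mouse. The pan-epidermal scaling without baseline butyrate replicate 3 was chosen after seeing the data. Scripts were tested on simulated data.

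The 9 genes and the gene lists were chosen with earlier results of these data known. The rule for named genes took the 9, for each the 3 most correlated genes, and from each list every called gene, otherwise the most positive and most negative. Cell type marker lists and some other lists are given by counts and examples, which departs from it. Genes from the lists that the rule did not name (Dsg1b, Lor, Krt10, Tfap2b, Ppard, Cyp1a1, Cyp1b1, Ahrr, Rora, Sfn) were chosen after their values were seen. Some listed results are not reported here. With 2 mice against 2, an exact permutation test cannot give a p below 0.333. Each library is labelled with its own mouse number.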

Additional observations from a re-analysis of the deposited data

Results flagged for a closer look

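Ahr was the 1 gene of the 9 in which the effect of butyrate took opposite directions in all mice of the 2 skin states. The share of all genes with this pattern was not counted. Butyrate and CTL groups did not overlap in 29.7% of all genes in baseline skin and in 44.9% in lesional skin. Both baseline butyrate mice lay below both baseline CTL mice (81.6 and 50.3 against 100.5 and 82.6 CPM), and both lesional butyrate mice lay above both lesional CTL mice (124 and 112 against 109 and 94.6 CPM). The difference between the effects was 0.68 on the log2 scale (standard error 0.35, FDR = 0.840 by edgeR's quasi-likelihood test), and 0.38 without baseline butyrate replicate 3 (FDR = 0.680).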

How the results depend on the processing

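With 2 mice per group, calls among the 9 genes depended on which mice entered the fit, and the cause was not tested. No paired analysis was made, because each library came from a different mouse and the labels name no pairs. RLE scaling, limma-voom and no filter on low counts kept the side of the threshold and the direction of all 9 genes in every comparison. For HDM exposure in CTL mice, 1 gene passed the FDR with all mice, 0 with pan-epidermal scaling, 3 with only the compared mice, 3 with pan-epidermal scaling without baseline butyrate replicate 3, and 0 to 3 with 1 mouse left out. Over all genes, 543 were called, and 207, 1093, 1918 and 1601 under pan-epidermal scaling, DESeq2, only the compared mice and pan-epidermal scaling without that mouse, and 0 to 1936 with 1 mouse left out. Leaving out 1 mouse moved the log2 fold change of Klf4 between -0.15 and 0.044, of Zfp750 between -0.044 and 0.27 and of Maf between -0.11 and 0.011.

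For HDM exposure in butyrate-treated mice, DESeq2 called 1 of the 9 genes and passed 2, and leaving out 1 mouse called 0 to 3 and passed 0 to 6. Over all genes, 53 were called, 698 by DESeq2, 0 with only the compared mice, 733 with pan-epidermal scaling without baseline butyrate replicate 3, and 0 to 2990 with 1 mouse left out. With 1 mouse left out, Trp63 ranged from -0.18 to 0.48, Grhl1 from -0.73 to 0.22, Ovol1 from -0.37 to 1.03, Zfp750 from -0.54 to 0.52 and Maf from -0.35 to 0.0028, the lowest values except that of Maf being without baseline butyrate replicate 1 and the highest without replicate 3. Zfp750 was 0.18 with pan-epidermal scaling without that replicate.

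For butyrate in lesional skin, 0 genes were called over all, 1 by limma-voom, 124 by DESeq2, 25 with only the compared mice, 168 with pan-epidermal scaling without baseline butyrate replicate 3, and 0 to 191 with 1 mouse left out. Trp63 was -0.074 and Maf -0.035 with pan-epidermal scaling, also without that mouse. With 1 mouse left out, Trp63 ranged from -0.031 to 0.29, Grhl3 from -0.055 to 0.57 and Maf from -0.054 to 0.31, the extremes lying at either lesional butyrate mouse left out.

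For butyrate in baseline skin, leaving out 1 mouse called 0 to 2 of the 9 genes and passed 0 to 6, and called 0 to 3777 of all genes, the highest without baseline butyrate replicate 1. DESeq2 called 58 of all genes. Trp63 ranged from -0.19 to 0.47, Grhl3 from -0.39 to 0.034, Gata3 from -0.19 to 0.13 and Zfp750 from -0.017 to 1.04. Under pan-epidermal scaling Trp63 was -0.0051, and -0.081 without baseline butyrate replicate 3, where Grhl3 was 0.14. For the interaction, leaving out 1 mouse called 0 to 3 and passed 0 to 4 of the 9 genes, and called 0 to 3275 of all genes, again the highest without baseline butyrate replicate 1, while DESeq2 called 37. Trp63 ranged from -0.34 to 0.33, Grhl1 from -0.50 to 0.45, Ovol1 from -1.14 to 0.26, Zfp750 from -0.64 to 0.42 and Maf from -0.31 to 0.050. With pan-epidermal scaling without baseline butyrate replicate 3, Trp63 was 0.0061, Grhl1 0.13, Grhl3 -0.081 and Zfp750 0.092.

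All 9 genes had at least 44.0 CPM in every library, at 18004136 to 21085544 counts per library, which leaves the spread between mice as the larger error. Pan-epidermal scaling moved the median log2 fold change of all genes to between -0.20 and -0.04 over the 5 comparisons.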
